A study of Homo sapiens with 9 samples.

Results

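The genes described here encode the basement membrane, the hemidesmosome and the surrounding matrix of keratinocytes. The members are 37 named genes of laminin chains, collagens, hemidesmosome proteins, linkers and matrix glycoproteins, and a gene was measured when the array annotation listed a probe set (a group of short probes for 1 transcript region) under that gene alone. By this rule 35 of the 37 were measured, out of 19775 genes on the array. LAMA3 and COL17A1 had no listed probe set of their own, and their expression was not analysed here.

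RNA was hybridized to 9 human whole-genome arrays, 3 for each of 3 lines. The parental line was HaCaT, a spontaneously immortalized human keratinocyte line. The WT-actin line was derived from it and carried a GFP fusion of unmodified β-actin. The NLS-actin line carried the same fusion with an added nuclear import signal (NLS), so that its product is directed to the nucleus. The study asked how actin in the nucleus affects keratinocyte gene expression. The methods describe transfection with a linearized plasmid and selection in G418 up to a stable population with GFP for the actin lines. Since a construct is represented by a single stable line, effects of the construct and of the line cannot be told apart. The 3 arrays of a line are experimental replicates that were not stated to be separate cultures, so the p values measure the spread between these arrays, which may be technical. Values are MAS5 signals, linear intensities scaled so that each array has the same trimmed mean, and comparisons are on the log2 scale. A gene was called when its adjusted p (limma, Benjamini-Hochberg over all 19775 genes) was under 0.05, and the probe set of highest mean signal stood for a gene.

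The basement membrane is a sheet of laminin and collagen IV networks, joined by nidogens and the proteoglycan perlecan, on which basal keratinocytes rest. Hemidesmosomes fasten the keratin filaments of these cells to the sheet, and anchoring fibrils of collagen VII fasten the sheet to the dermis. Keratinocytes make most of these components themselves, while fibroblasts of the dermis supply part of the nidogen and the interstitial collagens.

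The arrays carried a strong signal for keratinocyte genes. All 7 measured keratinocyte markers lay above 146.4, the median level of all genes, whereas 1 of 8 fibroblast markers (COL1A1, mean 602) and none of the endothelial, melanocyte or leukocyte markers did. The summed fibroblast marker signal overlapped between lines, from 494 to 973 in parental, 318 to 1158 in WT-actin and 487 to 1219 in NLS-actin arrays, and COL1A1 made up most of it. Of the 8 fibroblast markers, 6 had a negative log2 difference in WT-actin against parental cells (median -0.89), and COL1A2, at line means of 11.9, 3.10 and 16.3 in parental, WT-actin and NLS-actin cells, was at -2.04 (limma, adjusted p = 0.64). The summed leukocyte marker signal was 28.1 to 43.8 in WT-actin arrays, below the 44.2 to 122 of parental and the 90.3 to 171 of NLS-actin arrays. Of the leukocyte markers CD14 was called, 2.53 higher in NLS-actin than in WT-actin cells (limma, adjusted p = 0.0437), at line means of 76.98, 18.6 and 106 in parental, WT-actin and NLS-actin cells. By these means CD14 made up most of the leukocyte sum in each line. PTPRC (7.25, 13.35 and 8.14 in the same order) and CD3E (0.831, 2.05 and 4.76) were higher in WT-actin than in parental cells. On an axis that held 57.86% of the variance within lines, 3 arrays stood apart from the rest of their lines, namely the second parental, the first WT-actin and the second NLS-actin array (parental 2, WT-actin 1 and NLS-actin 2). Their log2 ratio of 3' to 5' ACTB control probe sets, a measure of RNA degradation or incomplete labelling, was 2.99, 3.90 and 3.68, the highest of each line, against 1.93 to 2.996 in the other arrays. The same ratio for GAPDH was 0.490, 1.62 and 0.717 in these 3 arrays. That was the highest of its line in WT-actin 1 and the lowest in parental 2 and NLS-actin 2. The part of these arrays and of the ACTB ratio in the results was not tested beyond the values given without the arrays or with the ratio in the fit. Both actin lines carry a β-actin fusion. The ACTB signal was 8874 to 14976.5 in parental, 14097 to 22131 in WT-actin and 13886 to 15475 in NLS-actin arrays. Whether the constructs add to the ACTB control signals was not tested, so the ratio may not be independent of line.

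Of the members, 1 passed the test in the 3 comparisons. COL4A4 was lower in NLS-actin than in WT-actin cells, and neither actin line had a called member relative to parental cells. Of all genes, 0.131% were called in NLS-actin against parental, 0.167% in WT-actin against parental and 0.728% in NLS-actin against WT-actin cells. At an unadjusted p under 0.05, 6 members differed between NLS-actin and parental cells (17.1% of 35, against 6.44% of all genes), 3 higher and 3 lower, where 2.48% and 3.96% of all genes did so. Between WT-actin and parental cells 7 members did (20.0%, against 6.69% of all genes), 4 higher and 3 lower, against 2.49% and 4.2% of all genes. Between NLS-actin and WT-actin cells 11 members did (31.4%, against 9.47% of all genes), 5 higher and 6 lower, against 5.39% and 4.09% of all genes. The shares of members exceeded those of all genes in each comparison, as did those of groups that did not overlap, but 29 of the 35 members lay above the median level and the counts were not compared at matched level. The members were also chosen with earlier results of these data known, so the excess is not read as a result about the members.

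With the fold threshold that the study also applied (unadjusted p under 0.05 and a fold above 2), 2 members (ECM1 and COL4A4) remained in NLS-actin against parental, 4 (COL4A4, NID1, NID2 and FREM2) in WT-actin against parental and 7 (COL4A4, NID1, NID2, BGN, FN1, ECM1 and FREM2) in NLS-actin against WT-actin cells. The corresponding shares of all genes were 3.17%, 3.03% and 4.85%. The last count was between 4 and 7 when 1 array was left out, with the fewest without NLS-actin replicate 2. The arrays of the compared lines did not overlap for 7, 6 and 9 members in the same order of comparisons (20.0%, 17.1% and 25.7%), against 13.9%, 12.3% and 13.9% of all genes. The median log2 difference of the members was 0.02, 0.14 and -0.05, against -0.01, -0.06 and 0.03 over all genes. Both comparisons with the parental line used the same 3 parental arrays.

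**Figure D1:**
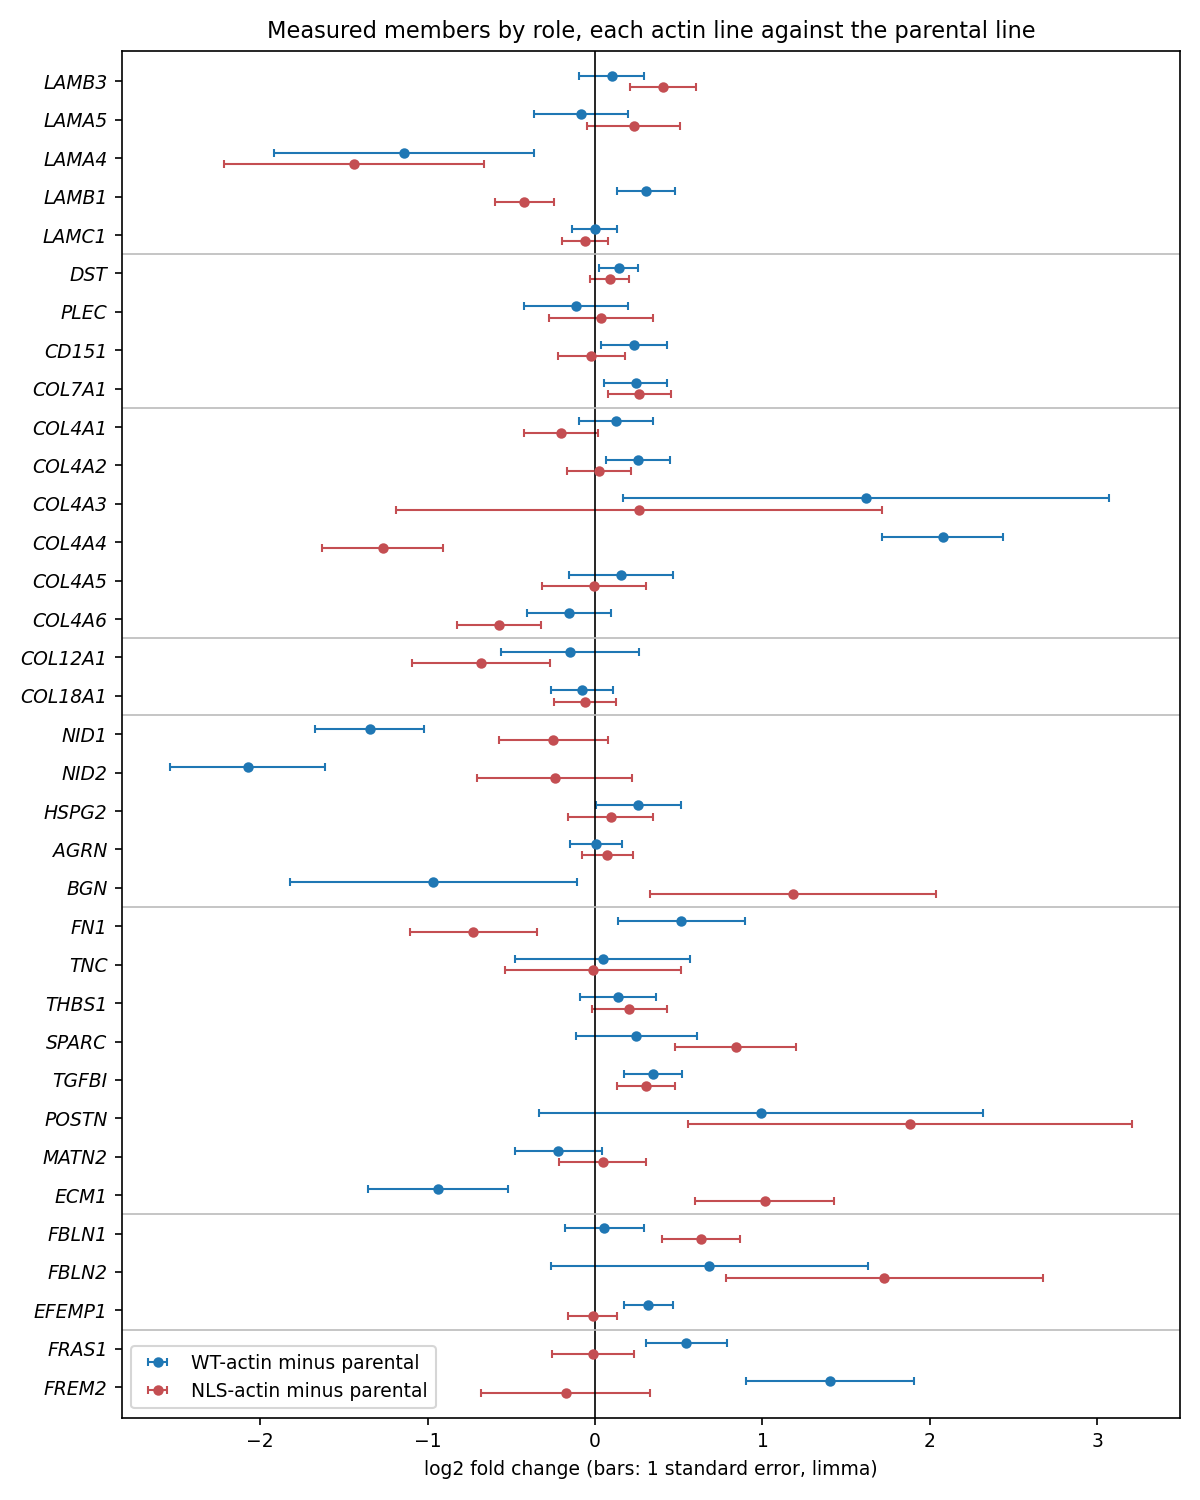
Log2 fold change of each of the 35 measured members in WT-actin (blue) and NLS-actin (red) against parental cells, with bars of 1 standard error from limma, grouped by role. COL4A4 lay at 2.08 in WT-actin and -1.27 in NLS-actin cells, NID1 and NID2 lay below 0 in WT-actin cells, and the hemidesmosome genes lay within 0.26 of 0.

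The collagen IV network is built from trimers of 6 chains, encoded by genes that lie in pairs, head to head, on chromosomes 2, 13 and X. COL4A4, which encodes the α4 chain, was the single call. Its signal was 171, 117 and 139 in parental, 643, 426 and 766 in WT-actin and 38.1, 55.2 and 95.4 in NLS-actin replicates 1 to 3. The 3 lines did not overlap, with WT-actin highest and NLS-actin lowest. Between NLS-actin and WT-actin cells it differed by -3.34 ± 0.36 on the log2 scale (SE from the fit, as for all differences) (limma, adjusted p = 0.000985). Against parental cells it was 2.08 ± 0.36 in WT-actin (limma, adjusted p = 0.0557) and -1.27 ± 0.36 in NLS-actin cells (limma, adjusted p = 0.364). Neither comparison with parental cells passed. The WT-actin difference passed without any one of the NLS-actin arrays, with limma adjusted p values of 0.0382, 0.0471 and 0.0302 without replicates 1, 2 and 3, and it did not pass without any one of the parental or WT-actin arrays (limma, adjusted p from 0.105 to 0.272). The NLS-actin signals were dim, against array medians of all probe sets from 29.7 to 43.3. Of the 3 COL4A4 probe sets, the other 2 had mean signals of 3.8 and 4.8 and gave log2 differences between NLS-actin and WT-actin cells of -4.71 and 1.47. With the mean of all 3 probe sets the difference was -2.20 and was not called (limma, adjusted p = 0.283).

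The starts of COL4A4 and its neighbour COL4A3 are 419 bases apart on chromosome 2, on opposite strands. Their promoter windows, from 250 bases before to 50 bases after each start (RefSeq, GRCh38.p14), are shown because COL4A4 differed most between lines and COL4A3 shares 82 bases of its window. COL4A4 lies on the minus strand at chr2:227164156-227164455 and COL4A3 on the plus strand at chr2:227164374-227164673. Capitals mark matches on either strand to 5 motifs. The AP-1 motif was spelled TGANTCA in this search. The Sp1 motif was spelled GGGCGG, and adjoining matches may overlap. The TEAD motif was spelled GGAATG in the same way. The TATA box was spelled TATAAA, and the last motif was the CArG box bound by SRF.
COL4A4: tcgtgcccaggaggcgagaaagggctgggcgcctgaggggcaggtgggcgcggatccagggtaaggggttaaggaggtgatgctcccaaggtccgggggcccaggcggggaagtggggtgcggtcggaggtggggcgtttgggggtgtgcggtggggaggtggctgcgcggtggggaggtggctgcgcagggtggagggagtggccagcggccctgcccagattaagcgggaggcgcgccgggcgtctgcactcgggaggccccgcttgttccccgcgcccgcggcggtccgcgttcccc
COL4A3: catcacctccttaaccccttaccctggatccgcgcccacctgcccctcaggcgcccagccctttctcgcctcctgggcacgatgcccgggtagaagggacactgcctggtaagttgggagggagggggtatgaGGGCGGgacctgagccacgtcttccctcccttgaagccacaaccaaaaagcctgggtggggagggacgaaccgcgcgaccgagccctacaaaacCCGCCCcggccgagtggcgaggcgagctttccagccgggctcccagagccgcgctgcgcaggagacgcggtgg

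None of these motifs was found in the COL4A4 window, which was 74.0% G and C, and 2 Sp1 matches were found in the COL4A3 window. Sp1 matches occurred in 45% of all 35116 promoters in the table. COL4A3, the α3 chain, had signals from 0.452 to 14.05 in parental, 10.7 to 14.9 in WT-actin and 0.653 to 15.9 in NLS-actin arrays. It was dim on all 9 arrays and its lines overlapped.

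The other collagen IV chains were brighter and their lines overlapped. COL4A6, the α6 chain, had 1188, 802 and 640 in parental, 934, 571 and 824 in WT-actin and 530, 642 and 544 in NLS-actin replicates 1 to 3. Of the NLS-actin arrays, 2 lay below all parental arrays, and the log2 difference from parental cells was -0.57 ± 0.25 (limma, adjusted p = 0.752), or -0.33 without parental replicate 1. The ubiquitous chains COL4A1 and COL4A2 had line means from 2641 to 3259 and from 3495 to 4193, and COL4A5, the partner of COL4A6, from 1104 to 1261. Between NLS-actin and WT-actin cells the log2 difference was negative for each of the 6 chains, from -3.34 to -0.16 with a median of -0.37, and COL4A4 alone was called. COL4A1 and COL4A2 start 127 bases apart on chromosome 13 and COL4A6 and COL4A5 start 380 bases apart on chromosome X (the nearer of the COL4A6 starts).

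**Figure D2:**
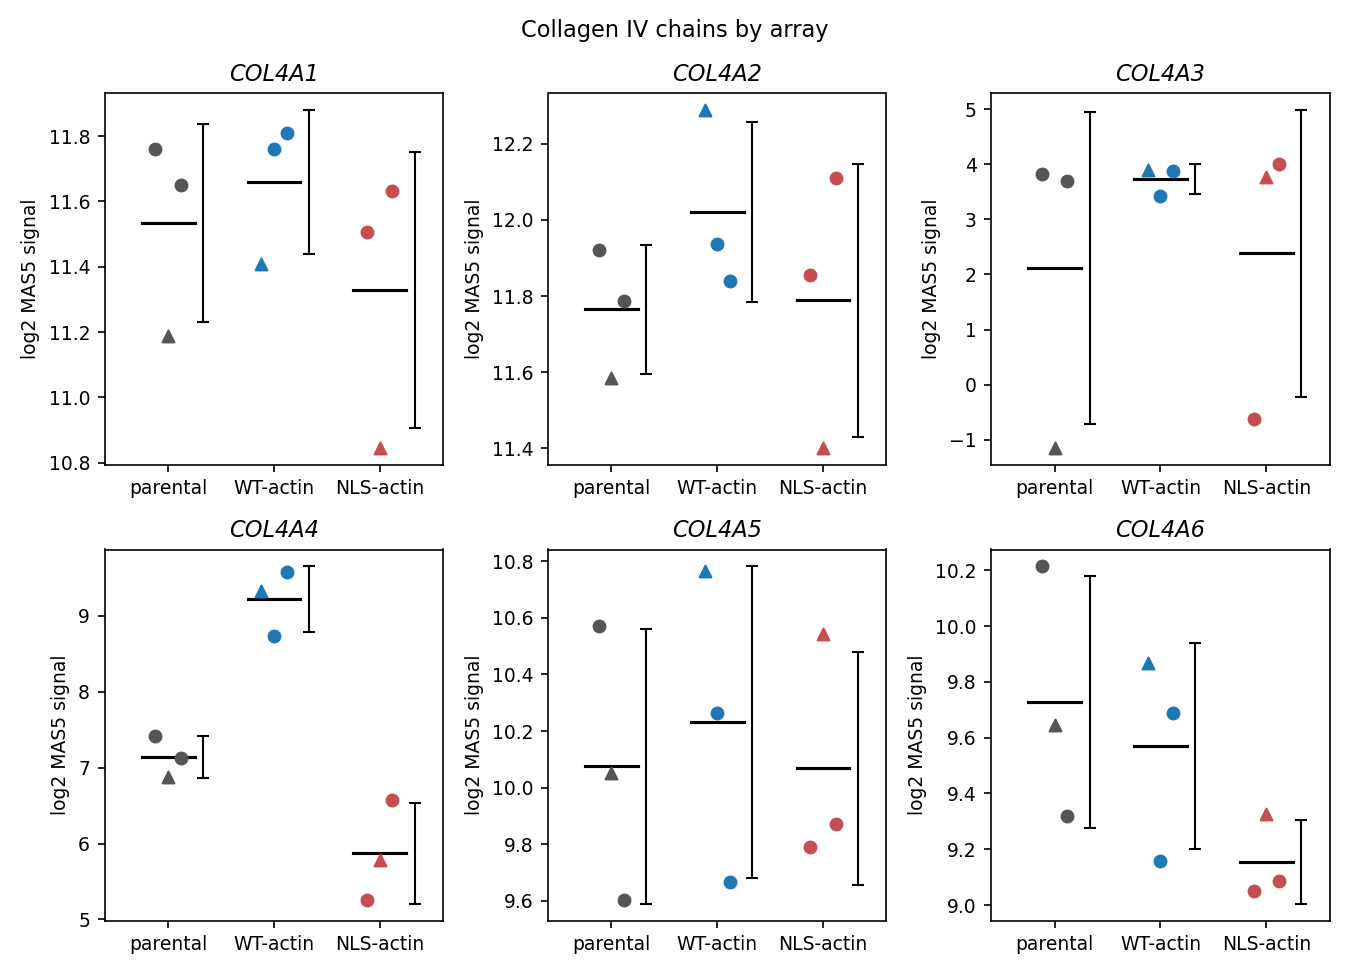
Log2 MAS5 signal of the 6 collagen IV chains on each array, by line, with a line for the mean and a bar of 1 SD (n = 3). Triangles are the 3 arrays that stood apart, and the axes differ between panels. The COL4A4 arrays fall in 3 separate groups, from 38.1 to 95.4, 117 to 171 and 426 to 766 in signal, and those of the other chains overlap.

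Nidogens are glycoproteins that link the laminin network to collagen IV. Both nidogen genes had their lowest signals in WT-actin cells. NID2 had 1504, 701 and 1492 in parental, 236, 252 and 354 in WT-actin and 1386, 409 and 1681 in NLS-actin replicates 1 to 3. All WT-actin arrays lay below all others, and the 2 lowest of the remaining arrays were parental 2 and NLS-actin 2, which stood apart. The log2 difference in WT-actin cells was -2.07 ± 0.46 against parental (limma, adjusted p = 0.172), and NLS-actin was 1.83 ± 0.46 above WT-actin cells (limma, adjusted p = 0.132). Without the 3 arrays that stood apart both passed, at -2.33 (limma, adjusted p = 0.00112) and 2.35 (limma, adjusted p = 0.000718). Leaving out NLS-actin replicate 2 alone gave -2.07 (limma, adjusted p = 0.0103) and 2.47 (limma, adjusted p = 0.00577). NID1 had 380, 294 and 269 in parental, 182, 110 and 91.0 in WT-actin and 184, 316 and 308 in NLS-actin replicates 1 to 3. The WT-actin arrays again lay below all others, though the highest of them, 182, was close to the lowest NLS-actin array, 184. On the log2 scale the difference was -1.35 ± 0.32 in WT-actin against parental (limma, adjusted p = 0.24) and 1.10 ± 0.32 in NLS-actin against WT-actin cells (limma, adjusted p = 0.21). The 3 NID1 probe sets were all negative in the former and all positive in the latter comparison, though the other 2 were dim (mean signals 36.1 and 20.2). In NLS-actin against parental cells the differences were -0.24 ± 0.46 for NID2 and -0.25 ± 0.32 for NID1. The 2 dim NID1 probe sets gave -1.02 and 0.12 there. Of the dim fibroblast and leukocyte markers, COL1A2, LUM, PDGFRB, THY1 and CD14 also had their lowest line mean in WT-actin cells. DCN, PDGFRA and PTPRC had their highest line mean there, and COL3A1 and CD3E neither. COL1A1, the brightest of these markers, had line means of 608, 563 and 633 in parental, WT-actin and NLS-actin cells. The part of these markers in the nidogen values was not tested.

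The promoter windows of the nidogen genes are shown because both genes were lowest in the same line. NID2 is at chr14:52069010-52069309 and NID1 at chr1:236065041-236065340, both on the minus strand (RefSeq, GRCh38.p14), and capitals mark the same motifs as above.
NID2: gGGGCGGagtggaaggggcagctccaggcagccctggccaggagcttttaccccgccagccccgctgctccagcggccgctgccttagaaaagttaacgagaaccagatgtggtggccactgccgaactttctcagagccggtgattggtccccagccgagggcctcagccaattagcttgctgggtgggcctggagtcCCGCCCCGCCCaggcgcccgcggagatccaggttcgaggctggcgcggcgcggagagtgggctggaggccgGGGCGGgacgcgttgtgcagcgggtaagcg
NID1: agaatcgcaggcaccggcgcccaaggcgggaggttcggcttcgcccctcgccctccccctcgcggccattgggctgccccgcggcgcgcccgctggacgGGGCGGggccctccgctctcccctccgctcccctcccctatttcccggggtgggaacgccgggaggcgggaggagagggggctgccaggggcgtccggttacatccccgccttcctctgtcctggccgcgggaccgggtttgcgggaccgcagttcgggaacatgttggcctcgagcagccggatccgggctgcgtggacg

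The capitals are 4 Sp1 matches in NID2 and 1 in NID1. In these cells, measured in bulk, fewer cells of a kind and less RNA per cell cannot be told apart, and this holds for every member.

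Proteoglycans completed the linkers. HSPG2 (perlecan) and AGRN (agrin), heparan sulfate proteoglycans of the basement membrane, had line means from 502 to 614 and from 5515 to 5791, and their log2 differences lay between -0.17 and 0.26. BGN (biglycan), a small proteoglycan of interstitial matrix, had 25.02, 4.62 and 5.26 in parental, 7.16, 2.29 and 4.99 in WT-actin and 23.0, 27.7 and 11.2 in NLS-actin replicates 1 to 3. Its NLS-actin arrays lay above all WT-actin arrays, with a log2 difference of 2.15 ± 0.85 (limma, adjusted p = 0.432), but all 9 signals were below the median of all probe sets on these arrays.

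The laminin chains were among the brighter members except LAMA4. LAMB1, the β1 chain found in laminins of many tissues, had 4897, 5044 and 4479 in parental, 7828, 5397 and 4946 in WT-actin and 3138, 3676 and 3993 in NLS-actin replicates 1 to 3. All NLS-actin arrays lay below all others, with a log2 difference of -0.73 ± 0.17 against WT-actin (limma, adjusted p = 0.109) and -0.42 ± 0.17 against parental cells (limma, adjusted p = 0.703). The second LAMB1 probe set gave -0.85 and -0.65. With the ACTB 3' to 5' ratio in the fit, which may not be independent of line, the former was -0.81 and passed (limma, adjusted p = 0.00889). LAMB3, the β3 chain of laminin-332 that hemidesmosomes bind, had 3437, 4124 and 4676 in parental, 4280, 3243 and 5865 in WT-actin and 5306, 5663 and 5141 in NLS-actin replicates 1 to 3. Each NLS-actin array lay above each parental array, by 0.41 ± 0.20 on the log2 scale (limma, adjusted p = 0.804), and the WT-actin arrays spanned both. LAMC1, the γ1 chain that joins LAMB1 in laminin trimers, had line means of 2969, 2978 and 2852 and differed by at most 0.06 on the log2 scale. LAMA5, the epidermal α5 chain, had line means from 2146 to 2581. LAMA4, an α chain of vascular and mesenchymal laminins, was at 3.43 to 32.2 over the 9 arrays.

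The hemidesmosome and anchoring fibril genes had log2 differences between -0.26 and 0.26 in all 3 comparisons by their brightest probe sets. DST encodes BPAG1, a plakin of the inner hemidesmosome plaque, and had 4836, 4847 and 5391 in parental, 5211, 5892 and 5513 in WT-actin and 5280, 5311 and 5411 in NLS-actin replicates 1 to 3. Its lines overlapped, with log2 differences of 0.14 ± 0.12 in WT-actin and 0.09 ± 0.12 in NLS-actin against parental cells. Of 10 DST probe sets 6 lay above the median level, and 3 of these shared the sign of the brightest in each comparison. PLEC encodes plectin, which ties keratin filaments to integrin α6β4, and had 636, 524 and 732 in parental, 408, 459 and 1031 in WT-actin and 759, 564 and 613 in NLS-actin replicates 1 to 3. The WT-actin arrays spanned more than the range of both other lines. COL7A1, the anchoring fibril collagen, had 1165, 814 and 1229 in parental, 1318, 1156 and 1267 in WT-actin and 1469, 1184 and 1159 in NLS-actin replicates 1 to 3. It was 0.24 ± 0.19 and 0.26 ± 0.19 above parental on the log2 scale in WT-actin and NLS-actin cells, and its lines overlapped. A second, dimmer COL7A1 probe set (mean signal 215) gave 0.86 in NLS-actin against parental cells, at an unadjusted p of 0.0174 (limma). CD151, a tetraspanin associated with laminin-binding integrins, had line means of 1251, 1500 and 1225. By its brightest probe set, none of the 4 genes had an unadjusted p under 0.05 or groups that did not overlap in any comparison. The integrin genes ITGA6, ITGB4 and ITGA3, whose products bind laminin-332, had log2 differences between -0.10 and 0.21.

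Matrix glycoproteins differed in both directions. ECM1, a secreted glycoprotein that binds perlecan and fibulins at the dermal-epidermal junction, had 655, 603 and 781 in parental, 176, 297 and 837 in WT-actin and 1345, 1457 and 1291 in NLS-actin replicates 1 to 3. The NLS-actin arrays lay above all others, and the WT-actin arrays were spread on both sides of the parental range. The log2 difference was 1.01 ± 0.42 in NLS-actin against parental (limma, adjusted p = 0.697) and 1.95 ± 0.42 in NLS-actin against WT-actin cells (limma, adjusted p = 0.0605). In WT-actin against parental cells it was -0.94 ± 0.42 (limma, adjusted p = 0.741). Without WT-actin replicate 3 the latter pair were 2.57 (limma, adjusted p = 0.00127) and -1.56 (limma, adjusted p = 0.0363), and without WT-actin replicate 1 they were 1.45 (limma, adjusted p = 0.103) and -0.44 (limma, adjusted p = 0.858). The promoter window of ECM1, at chr1:150507859-150508158 on the plus strand (RefSeq, GRCh38.p14), is shown because it differs in base composition and motifs from those above.
ECM1: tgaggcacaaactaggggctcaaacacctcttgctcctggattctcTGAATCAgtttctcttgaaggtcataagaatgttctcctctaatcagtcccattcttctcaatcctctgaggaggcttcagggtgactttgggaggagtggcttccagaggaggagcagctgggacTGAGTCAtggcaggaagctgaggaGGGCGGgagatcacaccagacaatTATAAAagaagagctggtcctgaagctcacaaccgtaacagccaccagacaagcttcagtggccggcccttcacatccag

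The capitals are, in order, 2 AP-1 matches, 1 Sp1 match and 1 TATA match, and the window was 51.7% G and C. AP-1 matches occurred in 7.71% of all promoters and TATA matches in 11.5%. Of the 32 members with a promoter in the table, 4 had an AP-1, 24 an Sp1, 4 a TEAD and 4 a TATA match, and none had a CArG box. These include LAMA3 (AP-1 and Sp1) and COL17A1 (TATA), whose expression was not measured. Of all promoters, 45% had an Sp1 match, 14% a TEAD match and 1.29% a CArG box, so none among 32 says little. The counts were not tested and are not read as a result about the members.

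FN1 encodes fibronectin, the main adhesive glycoprotein of provisional matrix. It had 5743, 4371 and 8090 in parental, 8308, 7817 and 9147 in WT-actin and 4929, 1616 and 5640 in NLS-actin replicates 1 to 3. The NLS-actin arrays lay below all WT-actin arrays and overlapped the parental ones. NLS-actin differed from parental cells by -0.73 ± 0.38 on the log2 scale (limma, adjusted p = 0.813), and all 7 FN1 probe sets were negative there, from -1.06 to -0.18. The log2 difference was -1.24 ± 0.38 between NLS-actin and WT-actin cells (limma, adjusted p = 0.231), and 6 of 7 FN1 probe sets were negative. It was -0.63 by the brightest probe set not ending in _s_at or _x_at, which was dimmer (mean signal 209). It was -0.67 without NLS-actin replicate 2 and -0.68 without the 3 arrays that stood apart. The next brightest probe sets, with mean signals of 3913, 3845 and 3702, gave -1.66, -1.58 and -1.69.

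SPARC, a collagen-binding matricellular protein, had 1111, 1549 and 685 in parental, 1922, 1194 and 860 in WT-actin and 1491, 2972 and 1523 in NLS-actin replicates 1 to 3. The lines overlapped, and the highest array of each line was one that stood apart. NLS-actin was 0.84 ± 0.36 above parental cells on the log2 scale (limma, adjusted p = 0.727). It was 0.51 without NLS-actin replicate 2, 0.53 without parental replicate 3 and 0.485 with the ACTB ratio in the fit. The remaining glycoproteins were TNC (tenascin-C), THBS1 (thrombospondin-1), TGFBI, MATN2 (matrilin-2) and POSTN (periostin). The first 4 had line means from 1628 to 11557 and log2 differences between -0.22 and 0.35 by their brightest probe sets. For THBS1 the probe sets disagreed. The brightest gave 0.21 in NLS-actin against parental and 0.07 in NLS-actin against WT-actin cells, and the other 6 of 7 were negative in both, down to -2.46 and -2.41. POSTN was at 0.296 to 14.4 over the 9 arrays.

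Fibulins are calcium-binding glycoproteins of basement membranes and elastic fibres. FBLN1 had 2653, 3445 and 2617 in parental, 4216, 3211 and 1987 in WT-actin and 4116, 5008 and 4349 in NLS-actin replicates 1 to 3. The NLS-actin arrays lay above all parental arrays, and the WT-actin arrays spanned the parental range. The log2 difference was 0.64 ± 0.23 in NLS-actin against parental (limma, adjusted p = 0.629) and 0.58 ± 0.23 in NLS-actin against WT-actin cells (limma, adjusted p = 0.442), where it was 0.28 without WT-actin replicate 3. Of 5 FBLN1 probe sets 4 were positive in the former comparison. The value was -0.05 with the brightest probe set not ending in _s_at or _x_at, which was dimmer (mean signal 801). The ending _s_at of the brightest probe set may mark probes shared by transcripts of the same gene. EFEMP1 (fibulin-3) had 8206, 7867 and 9157 in parental, 11742, 10360 and 9438 in WT-actin and 8511, 6942 and 9709 in NLS-actin replicates 1 to 3. The WT-actin arrays lay above all parental arrays, by 0.32 ± 0.15 on the log2 scale (limma, adjusted p = 0.746), and by 0.04 with quantile normalization. FBLN2 was at 2.14 to 35.0 over the 9 arrays.

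FRAS1 and FREM2 encode large proteins that form the Fraser complex beneath embryonic epithelia. Both had their highest line mean in WT-actin cells. FREM2 had 33.2, 33.1 and 35.3 in parental, 134, 75.3 and 71.2 in WT-actin and 20.0, 61.1 and 22.0 in NLS-actin replicates 1 to 3. The WT-actin arrays lay above all others, at a log2 difference of 1.40 ± 0.50 against parental (limma, adjusted p = 0.6), and NLS-actin was 1.58 ± 0.50 below WT-actin cells (limma, adjusted p = 0.259). FRAS1 had 539, 426 and 290 in parental, 721, 519 and 552 in WT-actin and 406, 412 and 388 in NLS-actin replicates 1 to 3. The highest parental array lay among the WT-actin arrays, and all NLS-actin arrays lay below the WT-actin ones. In log2 terms FRAS1 differed by 0.54 ± 0.24 in WT-actin against parental (limma, adjusted p = 0.743), or 0.30 without parental replicate 3, and -0.56 ± 0.24 in NLS-actin against WT-actin cells (limma, adjusted p = 0.496).

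**Figure D3:**
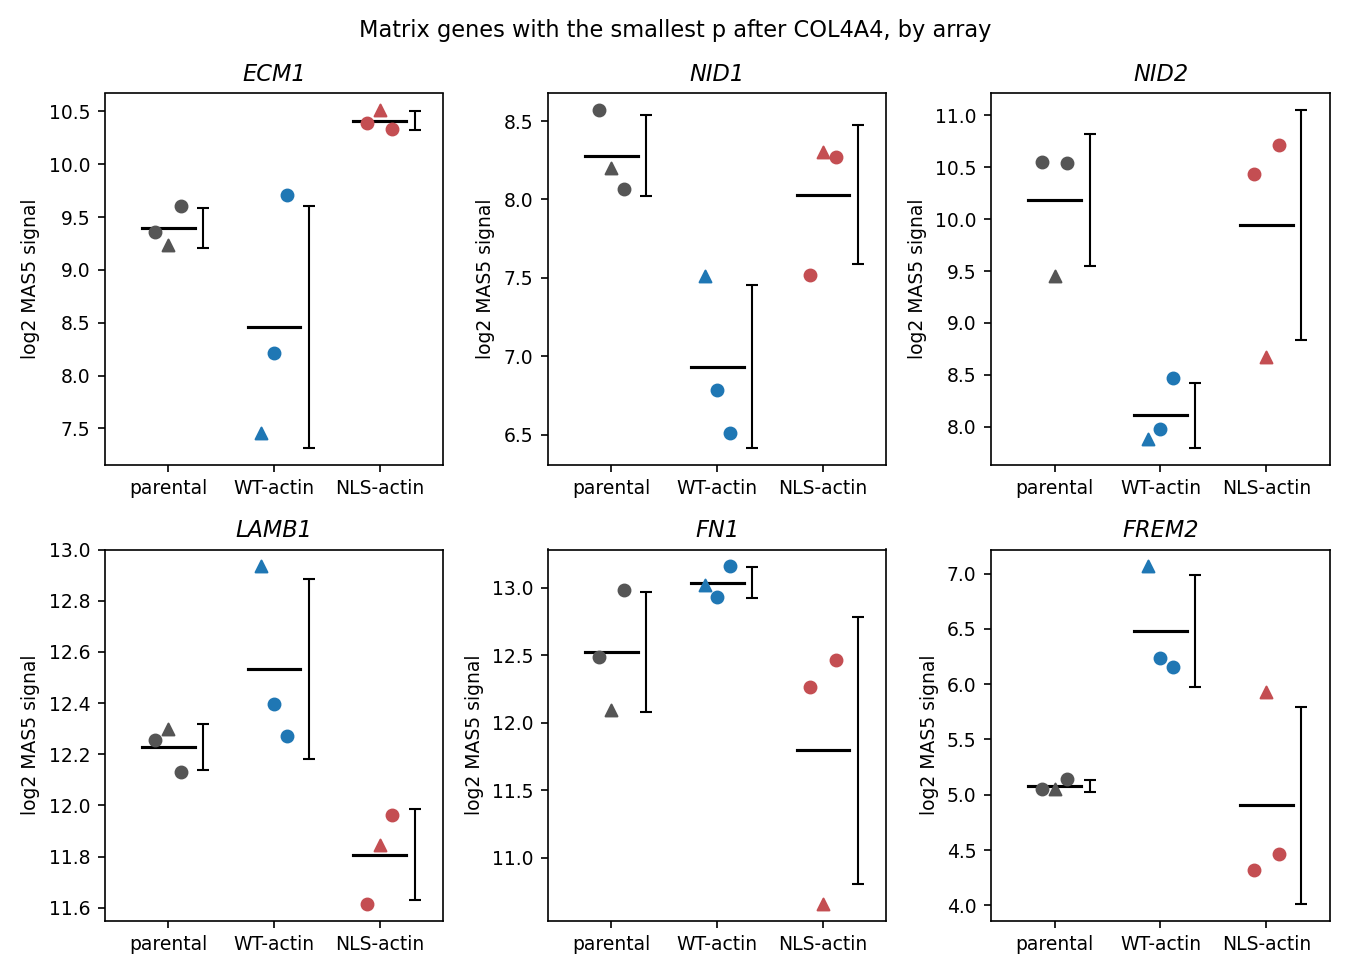
Log2 MAS5 signal of 6 matrix genes on each array, by line, with a line for the mean and a bar of 1 SD (n = 3). Triangles are the 3 arrays that stood apart, and the axes differ between panels. The WT-actin arrays were lowest for NID1 and NID2 and highest for FREM2, and the NLS-actin arrays were highest for ECM1 and lowest for LAMB1.

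Parental and NLS-actin arrays of the same replicate number were taken as pairs, though the labels do not say what a number marks. In deviations from the line means, parental 1 correlated more with NLS-actin 3 (0.336) than with NLS-actin 1 (0.234). Parental 3 correlated more with NLS-actin 1 (0.534) than with NLS-actin 3 (0.416), so that the pair of replicates 2 alone was distinct. With the number as a block within these 6 arrays, 4 members were called in NLS-actin against parental cells, where 1.91% of all genes were. ECM1 rose by 1.01 ± 0.15 (limma, adjusted p = 0.00278), and its paired log2 differences were 1.04, 1.27 and 0.73 for replicates 1 to 3. SPARC rose by 0.84 ± 0.15 (limma, adjusted p = 0.00981), with paired differences of 0.42, 0.94 and 1.15. FBLN1 rose by 0.64 ± 0.11 (limma, adjusted p = 0.0103), with paired differences of 0.63, 0.54 and 0.73. COL12A1, a collagen associated with fibril surfaces, was named after its values were seen. It had 4132, 2253 and 3986 in parental, 2062, 3573 and 3712 in WT-actin and 3285, 960 and 2849 in NLS-actin replicates 1 to 3, and the lines overlapped. In the blocked fit it fell by 0.68 ± 0.16 (limma, adjusted p = 0.0392), with paired differences of -0.33, -1.23 and -0.48. Without the block its difference was -0.68, and -0.125 when NLS-actin replicate 2 was left out. All 5 COL12A1 probe sets were negative, but the second brightest (mean signal 2290) gave -0.26 without the block, at an unadjusted p of 0.445 (limma). The paired differences are a description, since these genes were taken for their calls in the paired fit. With the replicate block over all 9 arrays 0 members were called in this comparison, as with a fit of the parental and NLS-actin arrays without a block. The other member collagen, COL18A1, a basement membrane collagen that is the source of endostatin, had line means from 753 to 789.

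**Figure D4:**
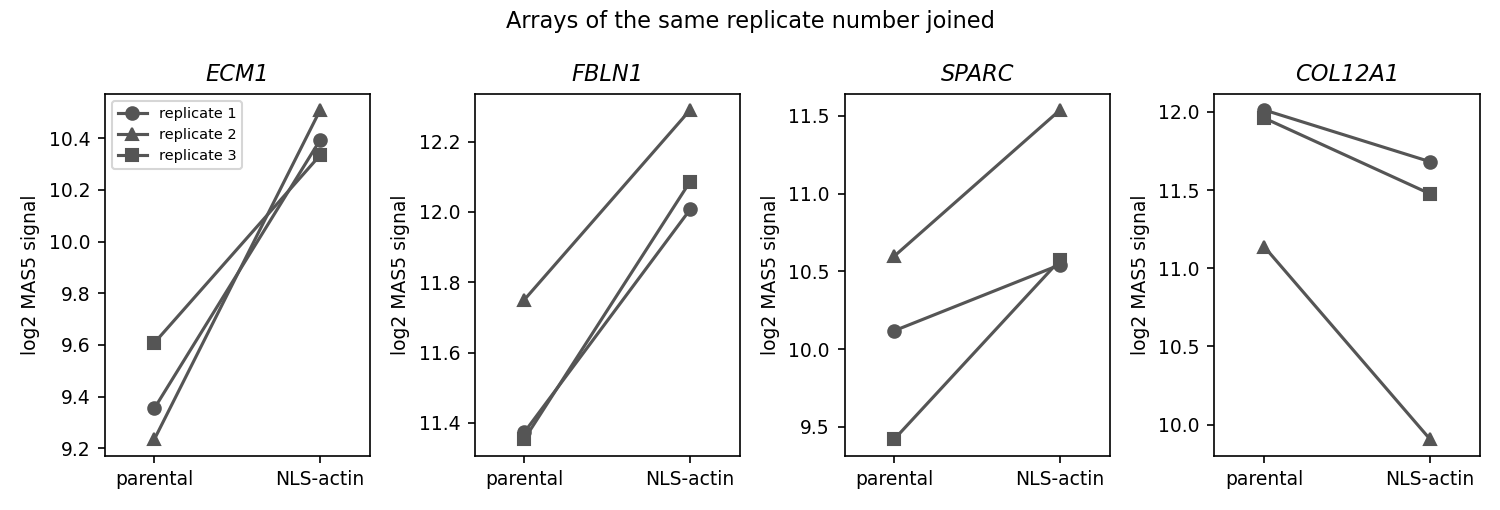
Log2 MAS5 signal of 4 genes in parental and NLS-actin cells, with arrays of the same replicate number joined. Each line rises from parental to NLS-actin for ECM1, FBLN1 and SPARC and falls for COL12A1, and the replicate 2 arrays (triangles) stood apart from the rest of their lines.

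Some members also differed between the arrays that stood apart and the others. PLEC, COL4A1, COL12A1, NID2 and TNC, 5 of 35, had the lowest signal of their line in each of the 3 arrays, as did 9.2% of all genes. LAMA5, LAMA4, HSPG2, SPARC, MATN2 and FBLN1, 6 of 35, had the highest, as did 15.5% of all genes, and neither count is read as a result about the members. TNC showed the widest of these gaps, with 790, 828 and 654 in the 3 arrays and from 1843 to 2531 in the other 6, and its line means of 1628, 1675 and 1705 were nearly equal.

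**Figure D5:**
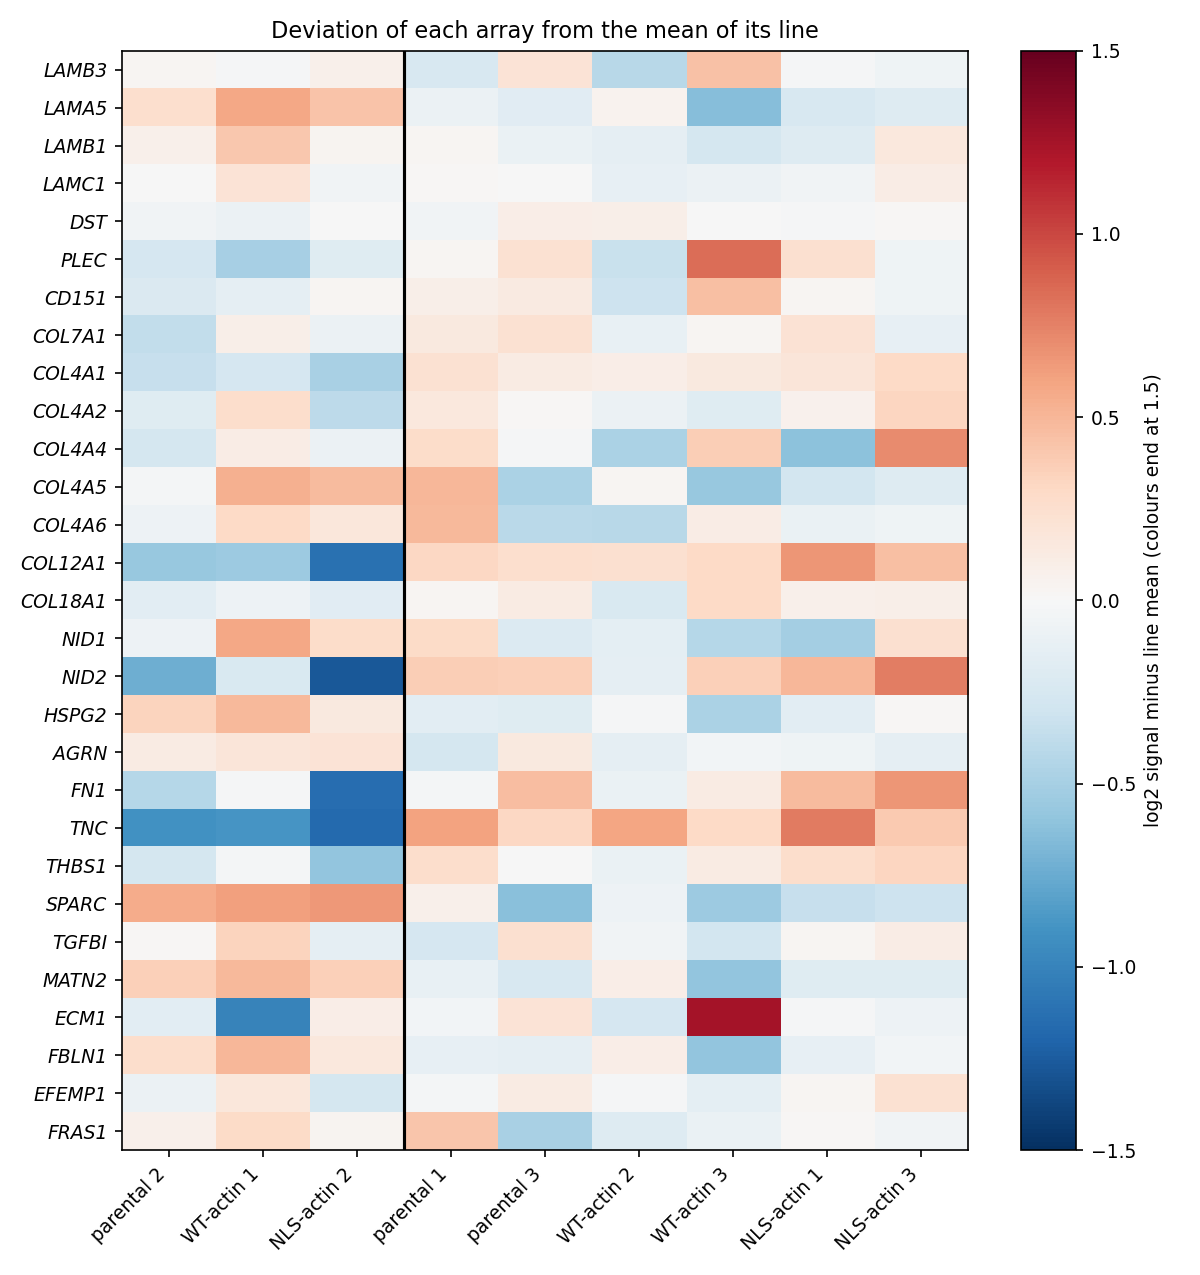
Log2 signal minus the mean of its line for the 29 members above the median level, in the 3 arrays that stood apart (left of the black line) and the other 6. TNC, COL12A1 and NID2 were below their line means (blue) and SPARC, MATN2 and LAMA5 above them (red) in each of the 3 arrays.

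Correlations across the 9 arrays were computed for 7 pairs of genes whose products are partners or neighbours. Pearson's r ranged from 0.476 for COL4A3 with COL4A4 to 0.691 for FRAS1 with FREM2, and Spearman's rho from 0.233 for LAMB1 with LAMC1 to 0.683 for NID1 with NID2. By exact permutation tests over the 9 arrays, two-sided and adjusted over the 7 pairs, p was between 0.131 and 0.175 for r and between 0.233 and 0.552 for rho, so none passed. These permutations ran across lines, so their p values do not separate differences between lines from relations within them. The smallest unadjusted p was 0.0371 (exact permutation test) for FRAS1 with FREM2, whose r without the 2 arrays farthest from the median was 0.622. Without such arrays r was -0.601 for COL4A1 with COL4A2, -0.0848 for COL4A3 with COL4A4, -0.11 for COL4A5 with COL4A6 and -0.127 for LAMB1 with LAMC1, so these 4 relations did not hold without those arrays in these values, and it was 0.362 for NID1 with NID2 and 0.664 for FBLN1 with FBLN2. Within lines, as deviations from the line means, r was 0.901 for LAMB1 with LAMC1, 0.682 for COL4A3 with COL4A4, 0.63 for COL4A5 with COL4A6, 0.561 for COL4A1 with COL4A2, 0.363 for FBLN1 with FBLN2, 0.239 for FRAS1 with FREM2 and -0.306 for NID1 with NID2. None passed there either (exact permutation tests, adjusted p from 0.292 to 0.537). Without the 2 farthest arrays the within-line r stayed positive for LAMB1 with LAMC1 (0.753), COL4A5 with COL4A6 (0.786), COL4A3 with COL4A4 (0.468) and FRAS1 with FREM2 (0.555), and was -0.118 for COL4A1 with COL4A2, -0.305 for FBLN1 with FBLN2 and -0.169 for NID1 with NID2.

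Other matrix genes did not pass the test in any comparison. None of 15 further basement membrane genes, 21 genes of collagen processing and crosslinking and 12 of fibrillar and microfibrillar matrix was called. At an unadjusted p under 0.05, 3 of the 15, 2 of the 21 and 3 of the 12 differed between NLS-actin and WT-actin cells, against 9.47% of all genes. In NLS-actin against parental cells 0, 1 and 1 did so, against 6.44%, and in WT-actin against parental cells 2, 0 and 2, against 6.69%. LOXL2, a lysyl oxidase that crosslinks collagen IV, was at a log2 difference of -1.74 in NLS-actin against parental (limma, adjusted p = 0.154) and -1.34 against WT-actin cells (limma, adjusted p = 0.17). PXDN, the peroxidase that forms the sulfilimine bonds of collagen IV, was at -0.74 in NLS-actin against WT-actin cells (limma, adjusted p = 0.239). Against parental cells PXDN was at -0.06 in NLS-actin and 0.68 in WT-actin cells. NPNT (nephronectin), an integrin ligand of basement membranes, was at -1.24 in WT-actin against parental cells (limma, adjusted p = 0.284). FBN1 (fibrillin-1), a microfibril component, was at -1.65 in NLS-actin (limma, adjusted p = 0.181) and -1.12 in WT-actin against parental cells (limma, adjusted p = 0.562).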

How the data were processed

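RNA of parental HaCaT, WT-actin and NLS-actin cells was measured on 9 arrays, 3 per line as labelled. The authors deposited MAS5 signals, linear intensities scaled to an equal trimmed mean per array, with no version stated. Their trimmed means here were 500.04 to 500.06. Detection calls were not used here, so the number of arrays and the dimness of a probe set limit the precision.

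Signals were taken to log2 without offset or filter. Of 54613 probe sets other than controls, 41091 had 1 gene symbol in the array annotation (41037 updated through Entrez identifiers, 54 kept), 1801 had several and 11721 none listed. Of the probe sets of a gene, the one of highest mean log2 signal was used. Lines were compared in 1 fit of all 9 arrays with limma 3.58.1 in R 4.3.3 (1 mean per line, intensity trend, two-sided), adjusted by Benjamini-Hochberg over 19775 genes. In simulated data the fit called 29.4% of genes changed 2-fold and 60.1% of those changed 4-fold, so many changes of this size would not be called. The simulated noise was independent between genes, so the axis shared within lines was not part of it. Partner genes were correlated with exact permutation tests; an eighth planned pair needed LAMA3. Promoters are RefSeq windows of GRCh38.p14, and those printed were chosen after values were seen. Tables and figures used Python 3.11.15, pandas 2.3.3, numpy 2.4.6 and matplotlib 3.10.9.

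Values by array are given for called members, the 14 of smallest unadjusted p, and LAMB3, COL7A1, DST and PLEC. From the further lists, up to 3 genes of smallest p were eligible to be named. The members and lists were chosen with earlier results of these data known.

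The labels number the arrays 1 to 3 per line without saying what a number marks. Deviations from the line means of arrays of the same number correlated at 0.234, 0.79 and 0.416 between parental and NLS-actin, which were taken as paired, and at -0.596 to 0.515 with WT-actin, which were not. Parental 1 correlated more with NLS-actin 3 (0.336) than with NLS-actin 1, and parental 3 more with NLS-actin 1 (0.534) than with NLS-actin 3, so that the pair of replicates 2 alone is distinct. Alternatives were quantile normalization, an offset of 8.08, a filter at the median level, no intensity trend, replicate blocks, fits of 2 lines, other uses of the probe sets, the ACTB 3' to 5' ratio as a covariate, and omission of arrays. Probe sets called cross-hybridizing were all those ending in _s_at or _x_at, and _s_at may mark probes shared by transcripts of 1 gene. The ACTB ratio may not be independent of line, since the actin lines carry β-actin fusions.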

Additional observations from a re-analysis of the deposited data

Results flagged for a closer look

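COL4A4 differed between NLS-actin and WT-actin cells in the test of the difference itself, at a log2 value of -3.34 (limma, adjusted p = 0.000985), with opposite signs of the 2 lines against parental cells (2.08 and -1.27). Its arrays did not overlap between any of the 3 lines.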

How the results depend on the processing

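The COL4A4 difference between NLS-actin and WT-actin cells passed the test (limma) in 18 of 19 alternatives, with the mean of all probe sets as the exception (-2.20, adjusted p = 0.283), and kept its sign in all 19. In NLS-actin against parental cells 0 members were called, and 4 with the replicate block within these arrays. The fold and p thresholds together gave 2 members, and 1 without the intensity trend or without the 3 arrays that stood apart. The members' median of 0.02 was -0.10 when probe sets were averaged and -0.18 without cross-hybridizing probe sets, which left 27 members. In WT-actin against parental cells 0 members were called, 1 with an offset, 2 with the replicate block over all arrays, 2 with a fit of 2 lines, 3 with the ACTB 3' to 5' ratio (COL4A4, NID1 and NID2), 1 without the 3 arrays that stood apart, and 0 to 2 without single arrays. The median of 0.14 was 0.0248 without the 3 arrays. In NLS-actin against WT-actin cells 1 member was called, 3 with the replicate block over all arrays, 0 with the mean of all probe sets, 4 with the ACTB ratio (COL4A4, ECM1, LAMB1 and NID2), 2 without the 3 arrays, and 1 to 2 without single arrays. The median of -0.05 was -0.18 when probe sets were averaged, -0.33 without cross-hybridizing probe sets and 0.0656 without the 3 arrays. Medians ranged without single arrays from -0.06 to 0.08, 0.06 to 0.18 and -0.09 to 0.05 in the same order of comparisons, and the counts by both thresholds from 2 to 3, 3 to 5 and 4 to 7. FBLN1 in NLS-actin against parental cells was -0.0468 without cross-hybridizing probe sets. Correlations reversed for COL4A3 with COL4A4 (-0.174, mean of all probe sets), COL4A1 with COL4A2 (-0.0423, without the 3 arrays) and NID1 with NID2 (-0.306, deviations from line means). FRAS1 with FREM2 reached 0.834 with the mean of all probe sets (exact permutation test across lines, adjusted p = 0.0476). The causes were not tested. Named genes were followed for the 25 results at an unadjusted p under 0.05 and COL12A1, chosen after values were seen; of 518 alternative values of the other results of the same genes, 45 changed sign.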
